A study of Mus musculus with 2 samples.

Results

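Interferon-gamma and the receptors that induce it in γδ T cells were followed through 8 genes: Ifng, the chains of the IL-12 receptor (Il12rb1, Il12rb2) and of the IL-18 receptor (Il18r1, Il18rap), the transcription factor Stat4, and the chains of the receptor for interferon-gamma itself (Ifngr1, Ifngr2). They were taken by symbol, and all 8 were found among the 27998 genes of the deposited tables. γδ T cells, sorted as CD3e+ TCRγδ+ cells, came from the liver and the thymus of untreated wild type C57BL/6J mice 8 weeks of age. Only the thymic suspension was depleted of CD4+ and CD8+ cells with magnetic beads before the sort, and how many mice went into either library is not stated for each. There was 1 library per tissue, so no difference between tissues carries a test, and every interval below is an exact 95% interval that covers counting error only.

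IL-12 and IL-18 are made by myeloid cells and act together on lymphocytes. The IL-12 receptor signals through JAK2, TYK2 and STAT4, the IL-18 receptor through MyD88 and NF-κB, and both pathways meet at the Ifng gene. Interferon-gamma then acts through a receptor of IFNGR1, which binds the cytokine, and IFNGR2, which is needed for the signal. Among CD4+ helper cells, the interferon-gamma producing type 1 cells are known for their low level of IFNGR2. In the mouse, γδ T cells fall broadly into producers of interferon-gamma and producers of IL-17.

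After the limits on detected genes and mitochondrial transcripts, 8075 hepatic and 4351 thymic cells were kept, with a median of 2741 and 3271 UMIs per cell (1 UMI is 1 counted transcript molecule). The libraries shared 60 cell barcodes, 56 of them among the kept cells. Cd3e, a chain of the T cell receptor complex, stood at 879 CPM (UMIs of a gene per 1000000 UMIs) in the hepatic and 622 CPM in the thymic cells. Cd4 was at 1.32 and 0.469 CPM. Cells were clustered without the 8 genes and named from markers. C1-like cells (2435 thymic, with the immature thymic markers Cd24a, Hes1 and Sox13) and C2-like cells (1017 thymic and 56 hepatic, Cd200 and S1pr1) were mostly thymic. C3-like cells (1067 hepatic and 187 thymic, with Dapl1, Ly6c2 and Nsg2) and C6-like cells (790 hepatic and 164 thymic, IL-17 type, with Ccr6 and Cd163l1) occurred in both. C4-like cells (2751, Socs2 and Cd40lg), C5-like cells (2825, NK-like, with Tyrobp, Gzmb and Ncr1), C7-like cells (284, Klrg1 and Klra7), C8-like cells (105, with myeloid transcripts such as Lyz2), interferon-response cells (77, Isg15 and Ifit1) and recently activated cells (61, Crtam and Nr4a1) were hepatic. Cycling cells (526) were compared in the thymus only. These are the 14 groups with at least 50 cells. The recently activated class is weakly set apart. Its 4 naming markers summed to 877 CPM in it, but to 965 CPM in hepatic C2-like and 914 CPM in C8-like cells. No cluster took this name at resolution 0.4, with 20 principal components or without the naming markers. Nor did any without the 5% of cells with the most UMIs, or with each library clustered alone.

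On the GRCm38 build, Ifng lies on chr10:118441046-118445892 and Ifngr1 on chr10:19591949-19610229. Il18r1 (chr1:40465552-40500854) and Il18rap (chr1:40515362-40551705) are neighbours on the plus strand, 14507 bases apart. Stat4 is on chr1:51987148-52107189, Il12rb1 on chr8:70808449-70821424 and Ifngr2 on chr16:91547072-91565623. Il12rb2 is on the minus strand at chr6:67291318-67376188 and overlaps Serbp1 on the other strand; whether the counting used strand is not stated in the sources used here, and without it reads of the overlap could not be told apart. The 250 bases before the RefSeq start site (GRCm38.p6) were read for 7 of the 8 genes, all but Il12rb1. Both chains of the interferon-gamma receptor are shown beside Ifng and Il12rb2, because Il12rb2 followed Ifng most closely over the cell classes and Ifngr2 ran opposite to it. Capitals mark the motifs that were searched on both strands: GGTGTG (T-box), TTCNNNGAA (STAT), TGANTCA (AP-1), GGAAAAT (NFAT) and TGTGGT (Runx).
Ifng, chr10:118440796-118441045, plus strand: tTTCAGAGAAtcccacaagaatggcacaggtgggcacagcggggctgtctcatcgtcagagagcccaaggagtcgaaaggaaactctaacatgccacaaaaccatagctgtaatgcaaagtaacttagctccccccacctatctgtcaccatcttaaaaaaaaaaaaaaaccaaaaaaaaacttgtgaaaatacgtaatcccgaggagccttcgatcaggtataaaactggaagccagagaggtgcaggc
Il12rb2, chr6:67376189-67376438, minus strand: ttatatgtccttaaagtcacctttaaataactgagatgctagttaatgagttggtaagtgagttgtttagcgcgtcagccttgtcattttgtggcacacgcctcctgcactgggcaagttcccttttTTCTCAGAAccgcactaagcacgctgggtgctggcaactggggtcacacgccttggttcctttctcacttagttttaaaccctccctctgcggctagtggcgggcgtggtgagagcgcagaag
Ifngr1, chr10:19591699-19591948, plus strand: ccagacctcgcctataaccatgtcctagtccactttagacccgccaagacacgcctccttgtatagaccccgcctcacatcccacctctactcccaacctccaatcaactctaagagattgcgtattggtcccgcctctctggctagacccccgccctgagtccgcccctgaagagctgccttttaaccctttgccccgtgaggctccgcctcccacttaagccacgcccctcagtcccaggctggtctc
Ifngr2, chr16:91546809-91547058, plus strand: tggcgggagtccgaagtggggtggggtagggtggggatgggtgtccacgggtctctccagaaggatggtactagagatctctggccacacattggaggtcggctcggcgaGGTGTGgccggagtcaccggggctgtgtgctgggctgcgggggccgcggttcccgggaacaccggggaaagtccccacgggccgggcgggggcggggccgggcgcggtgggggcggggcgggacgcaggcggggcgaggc
The STAT letters stood 249 bases before the start site of Ifng and 123 bases before that of Il12rb2, and 7.02% of 32851 mouse promoter windows of the same length hold them. The T-box letters stood 140 bases before the start of Ifngr2, as they occur in 16.3% of all windows. None of the searched letters stood in the windows of Ifngr1, Il18rap or Stat4, and 2 of the 3 windows of Il18r1 held some. The STAT letters stood 219 and 152 bases before a start site of Il18r1. The T-box letters stood 12 bases before another of its start sites. AP-1, NFAT and Runx letters, held by 6.75%, 4.16% and 14% of all windows, were in none of the 4 windows shown. The window of Ifngr2 was 74% G and C with 25 CpG pairs, that of Ifng 45.2% with 6, against a median of 52.4% and 6 over all windows.

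Ifng transcripts were almost entirely hepatic. The liver library held 17399 Ifng UMIs (719.9 CPM, 709 to 731) and the thymus library 187 (11 CPM, 9.44 to 12.7). Interferon-response cells stood at 1057 CPM (927 to 1200) and C4-like cells at 1039 CPM (1017 to 1061), levels whose intervals overlap. C5-like cells followed at 753 CPM (734 to 772), below the C4-like interval. Recently activated cells (526 CPM), hepatic C3-like cells (511 CPM) and C7-like cells (468 CPM) formed a middle set in which neighbours overlap. The C4-like cells held 47.8% of the hepatic Ifng UMIs and 34.1% of the hepatic cells, the C5-like cells 34.2% of the UMIs and 35.0% of the cells.

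Much lower levels were found in hepatic C6-like cells (154 CPM, 139 to 170), hepatic C2-like cells (121 CPM), thymic C3-like cells (109 CPM, 84.3 to 139) and C8-like cells (107 CPM, 77.5 to 143), and their neighbours in this order overlap. The immature thymic C2-like and C1-like cells stood at 9.81 and 8.12 CPM, thymic cycling cells at 2.50 CPM, and thymic C6-like cells had 1 Ifng UMI in 164 cells. Of the 187 thymic Ifng UMIs, 66 were in the C3-like cells, which were 4.30% of the thymic cells and held 35.3% of these UMIs. The thymic C3-like level lay about an order of magnitude above those of the C1-like and C2-like cells, without overlap of the intervals.

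Droplets also pick up free RNA, so the low hepatic levels were set beside B cells and myeloid-marked cells. Neither is free of T cell transcripts: Cd3e stood at 17.5% of its highest class level in C8-like cells and at 32.7% in hepatic B cells, so their Ifng is not a clean background. The 13 hepatic B cells held 4 Ifng UMIs (98.1 CPM, 26.7 to 251), and the myeloid-marked C8-like cells stood at 107 CPM. In hepatic C6-like cells Ifng reached 14.5% of its highest class level, where 7 genes of the cytotoxic classes reached less of theirs, from 2.94% for Gzma to 6.74% for Ccl4 and 9.20% for Gzmb. In hepatic B cells Ifng reached 9.28%, Ccl4 14.7%, Tyrobp 14.5%, Xcl1 13.7%, Gzmb 11.9%, Gzma 11.4%, Ccl5 5.00% and Ncr1 0%. The highest class differs by gene, such as C7-like for Gzma and C8-like for Tyrobp. These shares therefore cannot be compared between genes as measures of free RNA. After each cell was thinned to 1500 UMIs, 14.1% of hepatic C6-like cells had an Ifng UMI (11.7% to 16.7%), against 13.3% of C8-like cells (7.49% to 21.4%) and 1 of 13 B cells. Median depths were 2733, 3069 and 2287 UMIs. The C6-like and C8-like intervals overlap. After thinning, 6 of the 790 C6-like cells (0.759%) and none of the 105 C8-like cells kept at least 5 Ifng UMIs. With so low a share, 105 cells are too few for the lack of such cells to set the classes apart. Doublets were not removed, and the part of free RNA and of doublets in the Ifng of the C6-like, C8-like and B cells was not tested.

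Among cells of a class the cytokine was uneven. At 1500 UMIs per cell, 64.9% of C4-like cells (63.1% to 66.7%), 53.5% of C5-like cells (51.6% to 55.3%), 54.5% of interferon-response cells, 49.2% of recently activated cells, 43.5% of C7-like cells and 39.9% of hepatic C3-like cells (36.9% to 42.9%) had at least 1 Ifng UMI. Unthinned, the shares were 79.2% for the C4-like class and 69.7% for the C5-like class. The variance of the thinned Ifng count was 2.49 times its mean in C4-like cells and 2.70 times in C5-like cells. The tenth of cells richest in Ifng held 39.0% of the Ifng UMIs of the C4-like class and 45.3% of those of the C5-like class, and 20 C4-like and 19 C5-like cells had 10 or more. In the thymus 10.7% of C3-like cells (6.66% to 16.0%) and 1.23% of C1-like cells had an Ifng UMI, with median depths of 3077 and 3192 UMIs.

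**Figure D1:**
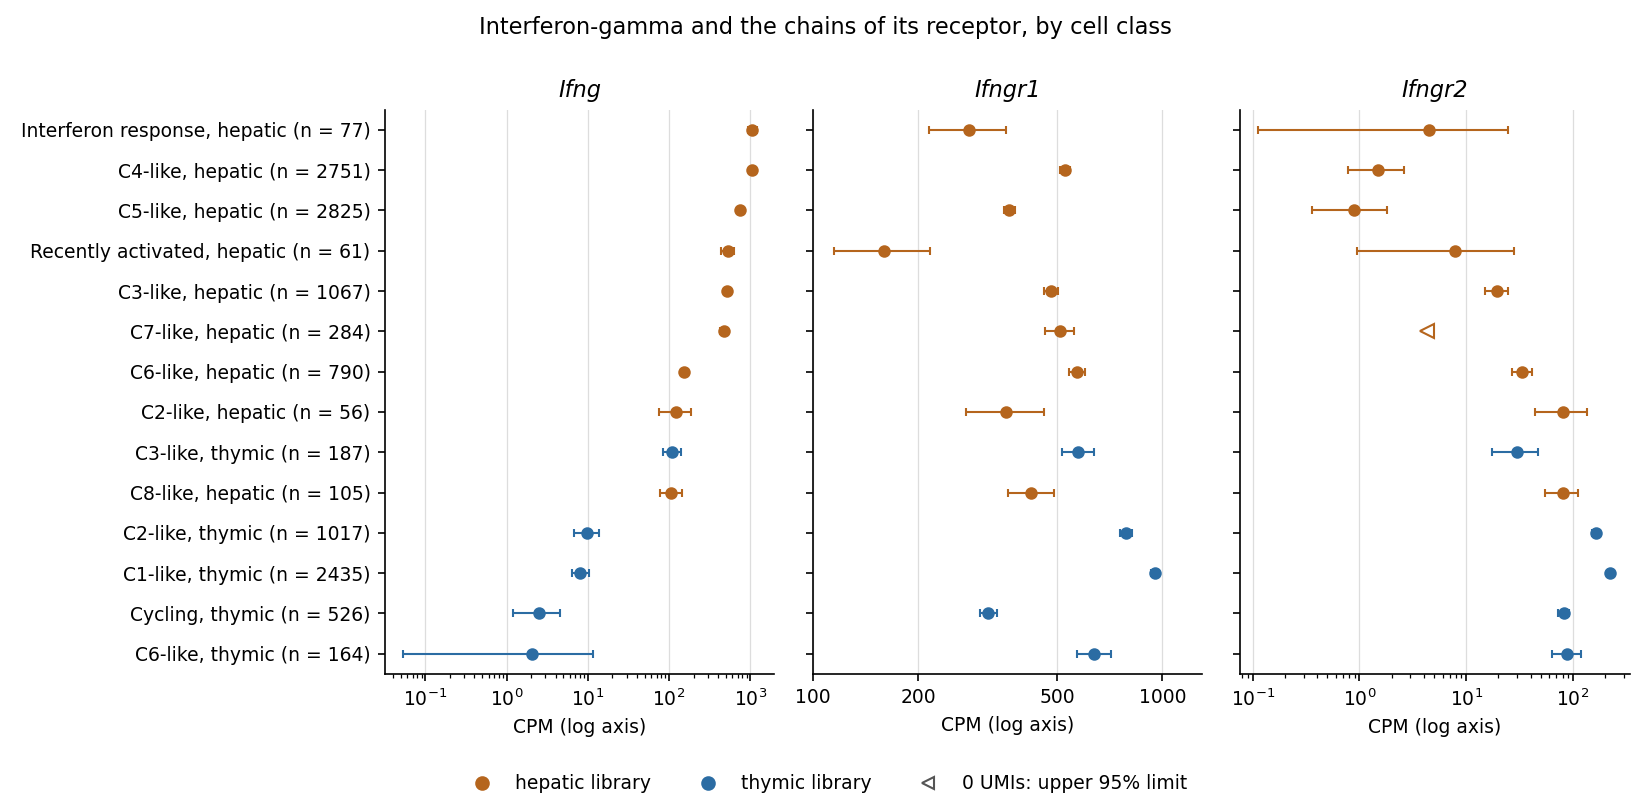
Level of Ifng, Ifngr1 and Ifngr2 in CPM (log axes, each with its own range) in the 14 cell classes with at least 50 cells, ordered by Ifng, with exact Poisson 95% intervals as bars and an open triangle at the upper limit where no UMI was counted. Ifng falls from 1057 CPM at the top to 2.08 CPM at the bottom, Ifngr1 stays between 159.8 and 951 CPM, and Ifngr2 runs the other way, from 1.5 CPM in C4-like to 222 CPM in C1-like cells.

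The receptor for interferon-gamma parted into its chains. Ifngr1 was found in every class and varied 5.95-fold over the 14 groups. It was highest in thymic C1-like cells (951 CPM, 931 to 972) and C2-like cells (789 CPM), between 481 and 639.8 CPM in C3-like, C4-like, C6-like and C7-like cells of either tissue, and lower in C5-like cells (365 CPM, 352 to 379). Recently activated cells had the lowest level, 159.8 CPM (115 to 217). The C1-like class holds a cluster led by Tnfsf11 and Hes1, at 1359 CPM (1323 to 1395), and another led by Tox2 and Cpa3, at 605 CPM (583 to 628).

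Ifngr2, the signalling chain, was close to missing from the hepatic classes that held most Ifng. C4-like cells had 12 Ifngr2 UMIs among 2751 cells (1.5 CPM, 0.775 to 2.62), C5-like cells 7 among 2825 (0.887 CPM, 0.357 to 1.83), interferon-response cells 1, recently activated cells 2, and C7-like cells 0 of 865512 UMIs, where 3 UMIs would be 3.47 CPM. Thymic C1-like cells stood at 222 CPM (212 to 232), thymic C2-like cells at 163 CPM (150 to 178), thymic C6-like cells at 87.5 CPM and thymic cycling cells at 81.5 CPM. Between these extremes lay hepatic C2-like (80.9 CPM) and C8-like cells (80.0 CPM), hepatic C6-like cells (33.4 CPM, 26.6 to 41.4), thymic C3-like cells (29.7 CPM, 17.6 to 47.0) and hepatic C3-like cells (19.3 CPM, 14.9 to 24.5). Of the 227 hepatic Ifngr2 UMIs, 83 were in C6-like, 67 in C3-like, 33 in C8-like and 14 in C2-like cells. The same C4-like cells gave 4215 Ifngr1 UMIs. At 1500 UMIs per cell an Ifngr2 UMI was seen in 29.1% of C1-like cells, 3.29% of hepatic C3-like cells and 0.145% of C4-like cells, and an Ifngr1 UMI in 50.1% of C4-like cells.

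Of the IL-12 receptor, Il12rb1 encodes the chain shared with the IL-23 receptor and Il12rb2 the chain that recruits STAT4. Il12rb1 was highest in hepatic C6-like cells (62.0 CPM, 52.6 to 72.6), with thymic C6-like cells at 39.6 CPM, C4-like cells at 37.1 CPM (33.0 to 41.6), C5-like cells at 32.9 CPM (29.1 to 37.2) and C1-like cells at 25.7 CPM, and every neighbour in the order of the 14 groups overlapped the next. The IL-23 receptor gene Il23r was at 44.7 CPM in hepatic and 68.8 CPM in thymic C6-like cells and at no more than 1.16 CPM in C3-like, C4-like, C5-like and C7-like hepatic cells. Il12rb2 had another order: recently activated cells 50.7 CPM (27.0 to 86.7), C5-like cells 38.1 CPM (34.0 to 42.7), C4-like cells 28.4 CPM (24.8 to 32.3), C7-like cells 23.1 CPM, hepatic C3-like cells 9.78 CPM, hepatic C6-like cells 5.23 CPM and thymic C6-like cells 0 UMIs. The thymic C1-like and C2-like cells stood at 3.36 and 1.84 CPM. The Il12rb2 level of C6-like cells overlapped that of the myeloid-marked C8-like cells (4.85 CPM, 0.587 to 17.5).

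The IL-18 receptor is built from Il18r1, which binds the cytokine, and Il18rap, the accessory chain. Il18r1 was highest in the IL-17 type cells, 313 CPM (265 to 367) in the thymic and 221 CPM (203 to 241) in the hepatic C6-like class, followed by thymic C3-like cells at 84.2 CPM (62.7 to 111). C4-like cells (52.6 CPM, 47.7 to 57.9) and hepatic C3-like cells (49.5 CPM, 42.3 to 57.4) overlapped. C5-like cells stood at 5.70 CPM (4.16 to 7.63), within the range of the immature thymic C1-like cells (6.73 CPM). In number, C6-like cells were 9.78% of the hepatic cells and held 44.6% of the hepatic Il18r1 UMIs, while C5-like cells were 35.0% of the cells and held 3.65%. Il18rap was highest in C7-like cells (42.7 CPM, 30.1 to 58.9), next to interferon-response cells (39.97 CPM, 18.3 to 75.9), C4-like cells (29.5 CPM, 25.9 to 33.5) and C3-like cells (25.3 CPM in the liver, 24.8 CPM in the thymus). C6-like cells were at 13.7 and 14.6 CPM, C5-like cells at 8.49 CPM and thymic C1-like cells at 0.232 CPM, from 2 UMIs in 2435 cells. C8-like cells had none. Neighbours in this order overlapped except where C5-like cells were followed by thymic C2-like cells at 1.53 CPM.

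Stat4 was the most even of the 8 after the ratio of highest to lowest level, 3.47-fold over the 14 groups. C4-like (90.2 CPM, 83.8 to 97.1), C5-like (89.3 CPM, 82.8 to 96.2), hepatic C3-like (82.5 CPM), thymic C2-like (79.7 CPM), C7-like (78.6 CPM) and thymic C1-like cells (72.5 CPM, 66.9 to 78.4) lay within 72.5 to 90.2 CPM, while their Ifng ran from 8.12 to 1039 CPM. Hepatic (33.0 CPM) and thymic C6-like cells (31.3 CPM), C8-like cells (26.7 CPM) and thymic cycling cells (26.0 CPM) were lowest.

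**Figure D2:**
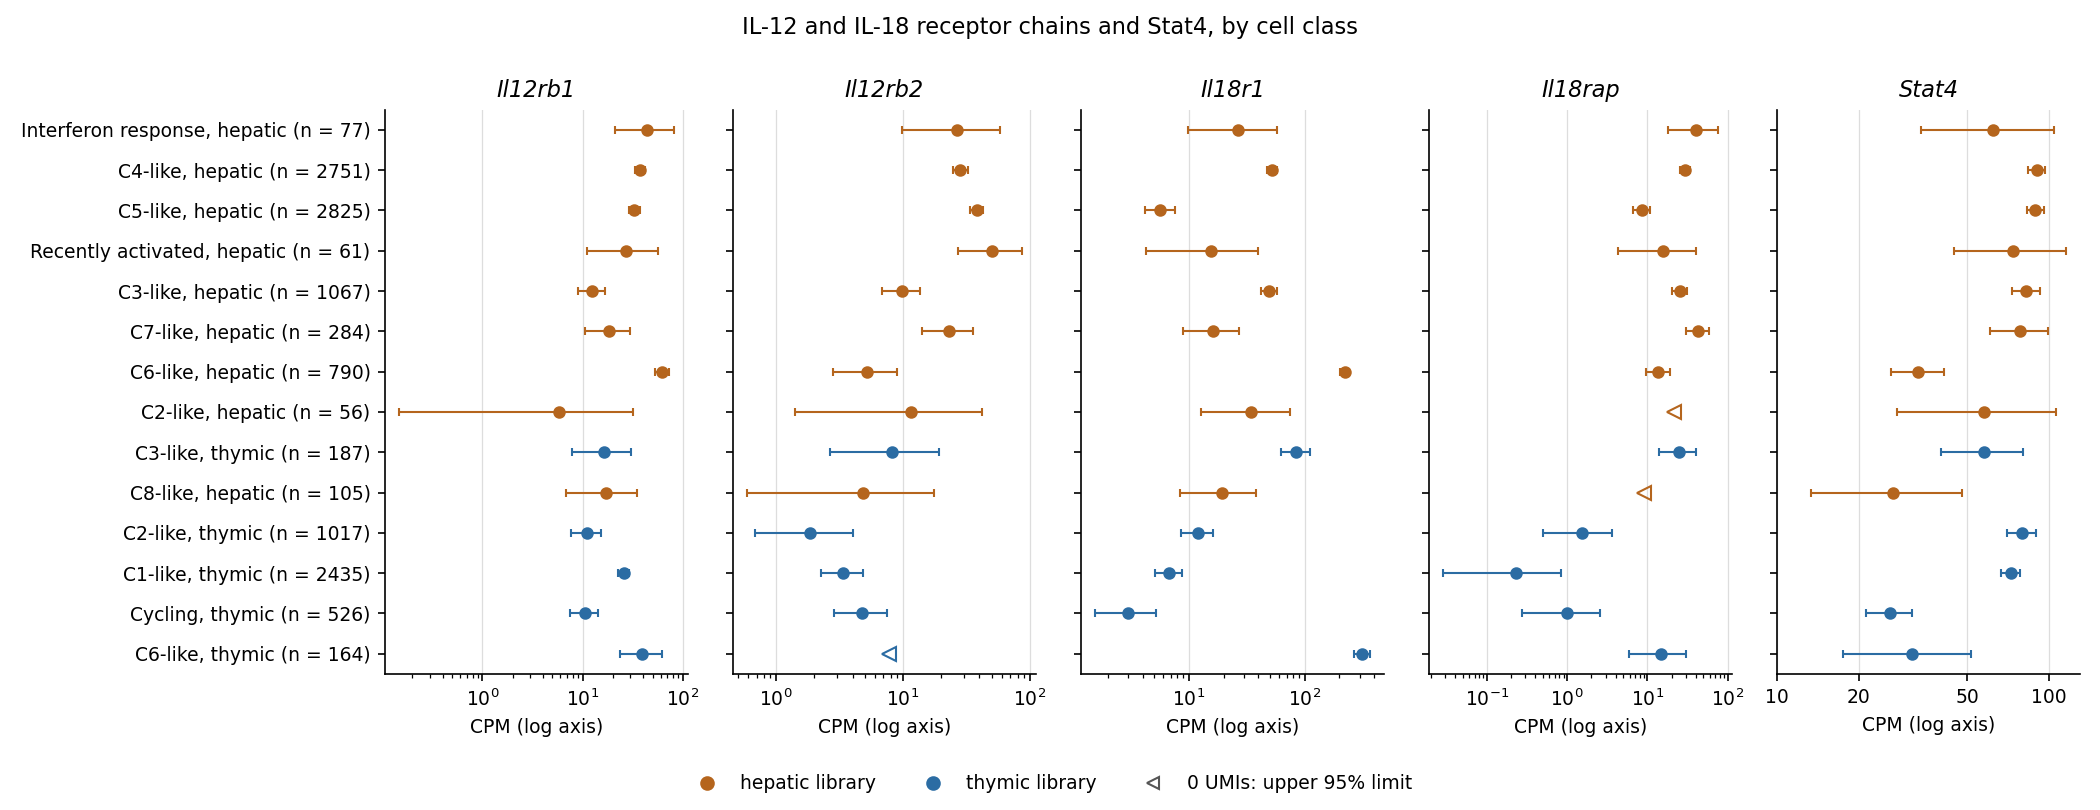
Level in CPM (log axes, each with its own range) of the IL-12 receptor chains, the IL-18 receptor chains and Stat4 in the same 14 classes and the same order, with exact Poisson 95% intervals. Il18r1 separates C4-like (52.6 CPM) from C5-like cells (5.70 CPM) and is highest in both C6-like groups, Il12rb2 is higher in C4-like (28.4 CPM) and C5-like cells (38.1 CPM) than in the thymic groups, and Stat4 spans the smallest range.

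Over the 14 groups, the log2 level of Ifng ran with that of Il12rb2 (Pearson r = 0.85), less with Il18rap (0.66) and Stat4 (0.54), hardly with Il12rb1 (0.29) or Il18r1 (-0.04), and against Ifngr2 (-0.90) and Ifngr1 (-0.49). These are descriptions of 14 classes from 2 libraries, in which classes of a library share its depth and free RNA. The genes whose pattern was most like that of Ifng, among 4404 compared, were Gimap4 (r = 0.97), the NK receptor genes Klrc1 (0.97), Klrd1 (0.96) and Klre1 (0.95), and Arl4d (0.95). All 5 were among the genes used for clustering, which Ifng was not. Nearest to Ifngr2 were Tnfrsf13b (0.97), Yipf5 (0.91) and Gch1 (0.89), to Ifngr1 Ypel3 (0.93), Use1 (0.92) and Sys1 (0.91). Nearest to Il12rb2 were Rcn1 (0.94), Tapbpl (0.93) and Afg3l2 (0.92), and to Il12rb1 Ppp1r11 (0.91), Mdfic (0.90) and Fam102a (0.87). Il18r1 was nearest to Lysmd2 (0.94), the IL-7 receptor gene Il7r (0.92) and Icos (0.90), Il18rap to the adaptor gene Hcst (0.86), Hsd11b1 (0.83) and Klrk1 (0.83), and Stat4 to Gimap5 (0.93), Fyn (0.90) and Gimap6 (0.89).

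Across all kept cells, the hepatic level over the thymic level was 65.7 for Ifng (56.9 to 76.3), 9.95 for Il18rap (7.02 to 14.5), 7.32 for Il12rb2 (5.61 to 9.71), 2.78 for Il18r1 (2.46 to 3.16), 1.71 for Il12rb1 (1.51 to 1.95) and 1.31 for Stat4 (1.21 to 1.41). For Ifngr1 it was 0.614 (0.598 to 0.629), and Ifngr2 was 17.7-fold lower in the liver (15.5 to 20.4). Thus 4 of the 8 genes were at least 2-fold higher in the hepatic cells and 1 was at least 2-fold lower. Of all 10758 genes with at least 50 UMIs over both libraries, 12.3% were at least 2-fold higher and 17% at least 2-fold lower. The libraries differ in class makeup, in the bead depletion and in handling, and these cannot be told apart from the tissue. Fewer cells of a type and less RNA per cell are separated only within classes.

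Within the C3-like class, found in both libraries, Ifng was 4.69 times as high in the hepatic as in the thymic cells (3.66 to 6.09). It was the only 1 of the 7 genes with enough UMIs to be past 2-fold, against 5.2% of all genes higher and 3.76% lower by that much. The ratios of the other genes were nearer to 1: Il18r1 0.587 (0.427 to 0.819), Il12rb1 0.749 (0.371 to 1.67), Il18rap 1.02 (0.587 to 1.90), Ifngr1 0.836 (0.745 to 0.941), Ifngr2 0.648 (0.381 to 1.16) and Stat4 1.43 (1.00 to 2.09). The thymic C3-like group did not hold together under other clusterings, so the ratio may set unlike cells side by side, which was not tested. At resolution 0.8 only 75 thymic cells were named C3-like (Ifng 129 CPM), and 117 thymic with 16 hepatic cells formed an unnamed cluster led by Izumo1r and Zbtb16. With each library clustered alone no cluster of either was named C3-like, and 182 thymic cells led by Ly6c2, Xcl1 and Ccl5 were named C5-like. When the 5% of cells with the most UMIs were removed and the rest clustered again, 56 thymic cells were named C3-like, in place of 187. Another 120 thymic with 13 hepatic cells then formed an unnamed cluster led by Zbtb16 and Izumo1r. The Ifng level of the thymic C3-like cells was then 176 CPM in place of 109 and their Ifngr2 level 17.0 in place of 29.7 CPM.

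Within the C6-like class the comparison of Ifng is 382 hepatic UMIs against 1 thymic UMI, a ratio of 73.8 with an interval from 13.2 to 2922. The part of free RNA and of cell handling in the hepatic level was not tested. Ifngr2 was 2.62-fold lower in the hepatic cells (1.76 to 3.84), Il18r1 stood at a ratio of 0.708 (0.590 to 0.854), Il12rb1 at 1.57 (0.969 to 2.67), Ifngr1 at 0.891 (0.787 to 1.01) and Stat4 at 1.06 (0.604 to 1.97). So 1 of 6 genes was past 2-fold in each direction, where 6.62% of all genes were higher and 2.25% lower.

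**Figure D3:**
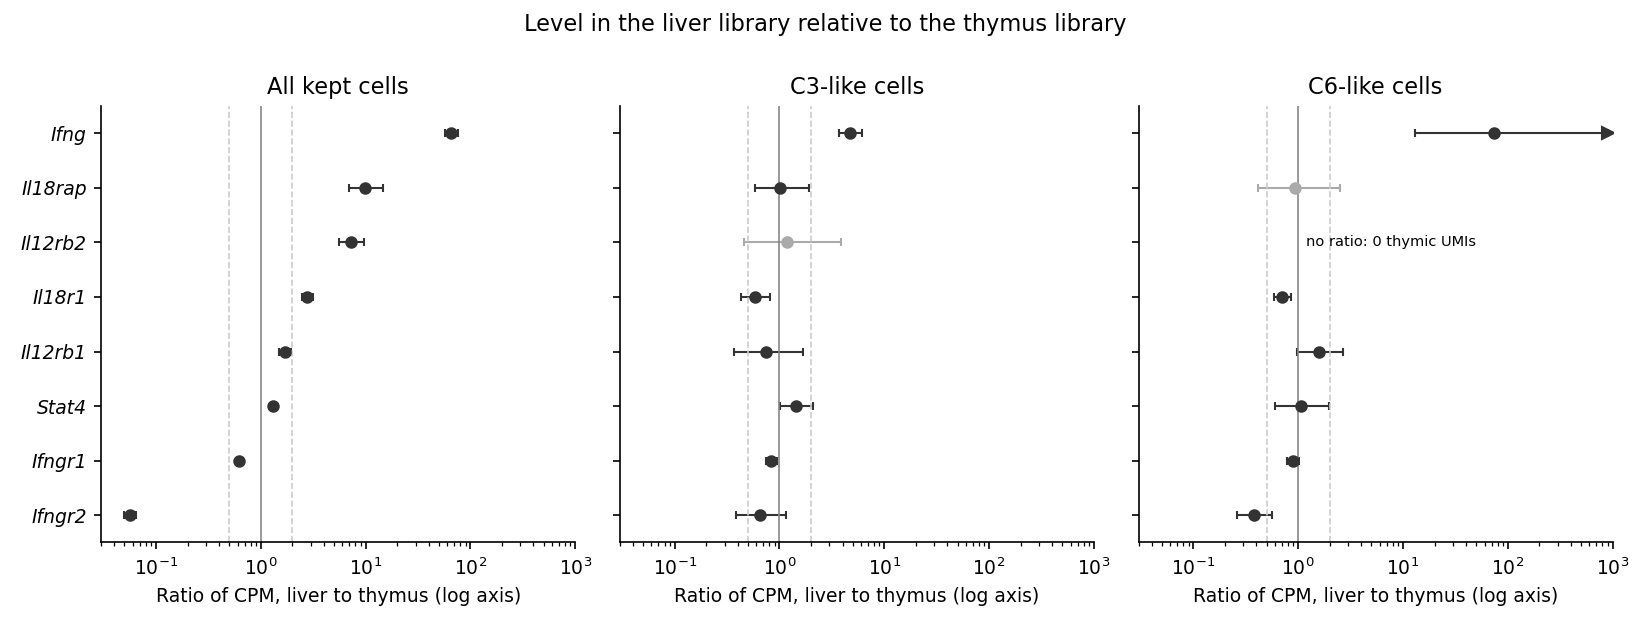
Ratio of the level in the liver library to that in the thymus library (log axes) for all kept cells, C3-like cells and C6-like cells, with exact conditional 95% intervals, dashed lines at 2-fold either way, gray points for genes with under 50 UMIs over both groups and an arrow where an interval leaves the axis. Ifng lies at 65.7 and Ifngr2 at 0.0565 over all cells, while within C3-like cells all genes but Ifng lie between 0.587 and 1.43.

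Between C4-like and C5-like cells, which held most of the hepatic Ifng UMIs, the chains of the IL-18 receptor differed most among the 7 members with enough UMIs. Il18r1 was 9.23 times as high in the C4-like as in the C5-like cells (6.78 to 12.9) and Il18rap 3.47 times (2.64 to 4.63). For Ifng the ratio was 1.38 (1.33 to 1.43), for Ifngr1 1.44 (1.38 to 1.51), for Il12rb1 1.13 (0.951 to 1.34), for Il12rb2 0.744 (0.623 to 0.887) and for Stat4 1.01 (0.909 to 1.12). So 2 of the 7 genes with enough UMIs were at least 2-fold higher and none lower, against 2.71% and 2.51% of the 8809 genes. Ifngr2 had too few UMIs in both classes to compare. The extent of the C4-like class depends on the clustering: at resolution 0.8, 1884 hepatic cells were named so, against 2751 here.

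Co-detection in single cells was measured as the number of cells with a UMI of both Ifng and another gene, divided by the number that independent detection would give within the class, after thinning every cell to 1500 UMIs. The interval takes the Ifng share of the class as fixed. In C4-like cells the ratio was 1.04 for Il12rb1 (0.917 to 1.16), 1.03 for Il12rb2 (0.899 to 1.16), 1.02 for Il18r1 (0.911 to 1.12), 0.924 for Il18rap (0.780 to 1.06), 1.02 for Stat4 (0.938 to 1.10) and 1.03 for Ifngr1 (0.990 to 1.07). In words, 67.2% of the 128 C4-like cells with an Il12rb2 UMI had an Ifng UMI, and so had 64.8% of those without. In C5-like cells the ratios were 0.860 for Il12rb1 (0.692 to 1.03), 1.01 for Il12rb2 (0.854 to 1.16), 0.891 for Il18r1 (0.481 to 1.31), 1.02 for Il18rap (0.727 to 1.3), 0.983 for Stat4 (0.880 to 1.09) and 1.03 for Ifngr1 (0.973 to 1.08). The value for Il12rb1 was 1.04 under another random thinning. All these intervals hold 1. The receptor chains were seen in few cells, and departures smaller than the intervals could not be detected at this depth.

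None of the members detected in 5% to 90% of the cells reached a ratio of 1.2 in either class. Nor did almost any other gene: the share at or past 1.2 was 0% of 3144 genes in C4-like and 0.0639% of 3132 genes in C5-like cells. The middle 90% of genes ran from 0.929 to 1.07 and from 0.910 to 1.09. Highest with Ifng were Erlec1 (1.15), Pgp (1.15), Topors (1.14), Klf10 (1.14) and Rnf130 (1.14) in C4-like cells and Pabpn1 (1.24), 2310035C23Rik (1.23), Nt5dc1 (1.19), Hnrnpd (1.18) and Siah2 (1.18) in C5-like cells. Among the listed genes, Gadd45b, a MyD88-induced activator of p38 signalling, had a ratio with Ifng of 1.08 in the C4-like class (1.03 to 1.13) and 1.11 in the C5-like class (1.03 to 1.19), and Gadd45g, which IL-12 and IL-18 induce together, 1.10 (1.01 to 1.19) in C5-like cells. Tbx21, the gene of the T-box factor T-bet, was at 0.968 (0.882 to 1.05) and 1.02 (0.923 to 1.12), and the heat shock gene Hspa1a at 1.02 (0.985 to 1.05) and 1.00 (0.954 to 1.05). Il4 was at 1.12 in C4-like cells (1.00 to 1.22), where 122 of 168 cells with an Il4 UMI had an Ifng UMI.

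Counting how many of the 4 IL-12 and IL-18 receptor chains a cell showed gave shares whose intervals overlapped within the C4-like and within the C5-like class. Of C4-like cells, 2211 showed none, 487 showed 1 and 50 showed 2, and an Ifng UMI was seen in 64.6% (62.6% to 66.6%), 66.7% (62.4% to 70.9%) and 66% (51.2% to 78.8%) of them. Of C5-like cells, 53.7% of the 2499 without a chain, 52.8% of the 309 with 1 and 5 of the 16 with 2 had one. In hepatic C3-like cells the share was 38.2% (35.0% to 41.4%) in the 922 cells without a chain and 52.3% (43.4% to 61.1%) in the 130 cells with 1, intervals that do not overlap, and 5 of the 13 cells with 2 had one. Within C6-like cells it was 15.1% of 483 and 11.9% of 286 cells.

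Pairs of chains were seen together in few cells. Il18r1 and Il18rap, which form 1 receptor, shared 9 hepatic C3-like cells where 3.06 would follow from independent detection (ratio 2.94, 1.41 to 5.08), 11 C4-like cells against 8.99 (1.22, 0.623 to 2.11) and 5 C6-like cells against 5.63. Il12rb1 and Il12rb2 shared 9 C4-like cells against 6.65 (1.35, 0.628 to 2.49) and 10 C5-like cells against 6.67 (1.5, 0.729 to 2.68). Among C4-like cells, Il12rb2 and Il18rap met in 12 cells against 5.58 (2.15, 1.13 to 3.61). The other pairs of an IL-12 with an IL-18 receptor chain had intervals that hold 1 there. These were Il12rb2 with Il18r1 (1.36, 0.731 to 2.27), Il12rb1 with Il18r1 (1.21, 0.655 to 2.03) and Il12rb1 with Il18rap (0.641, 0.176 to 1.60). Il4 and Il18r1 met in 26 C4-like cells against 12.6 (2.07, 1.38 to 2.94). More pairs were computed in every class than are given here.

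In the hepatic C3-like class the intervals of Ifngr2, Il18rap and Ifngr1 did not hold 1. Of its 35 cells with an Ifngr2 UMI, 4 had an Ifng UMI (11.4%, 3.20% to 26.7%), against 40.9% of the cells without (37.9% to 43.9%), a ratio of 0.286 (0.0803 to 0.670). With Il18rap, 25 of 44 cells had Ifng (56.8%, 41.0% to 71.7%) against 39.2% of those without, a ratio of 1.42 (1.03 to 1.80). With Ifngr1 the shares were 45.9% and 33.8% (ratio 1.15, 1.04 to 1.26), with Il18r1 48.6% and 39.3% (1.22, 0.923 to 1.52), with Il12rb2 62.5% of 16 cells and 39.6% (1.57, 0.888 to 2.13), and with Tbx21 55.4% and 38.9% (1.39, 1.07 to 1.70). Of the 1883 genes detected in 30 to 60 of these cells, 1.01% had a ratio of at most 0.5. A ratio of at least 1.4 was seen for 2.92%. The band and both cutoffs were set after the values were seen, so these shares are no test of the members. Ifngr2 and Il18rap are the 2 members in that band, 1 on either side. The ratio of Ifngr2 lay between 0.144 and 0.553 under the other thinning depths and cell filters, chosen after seeing the data, and that of Il18rap between 1.39 and 1.5.

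**Figure D4:**
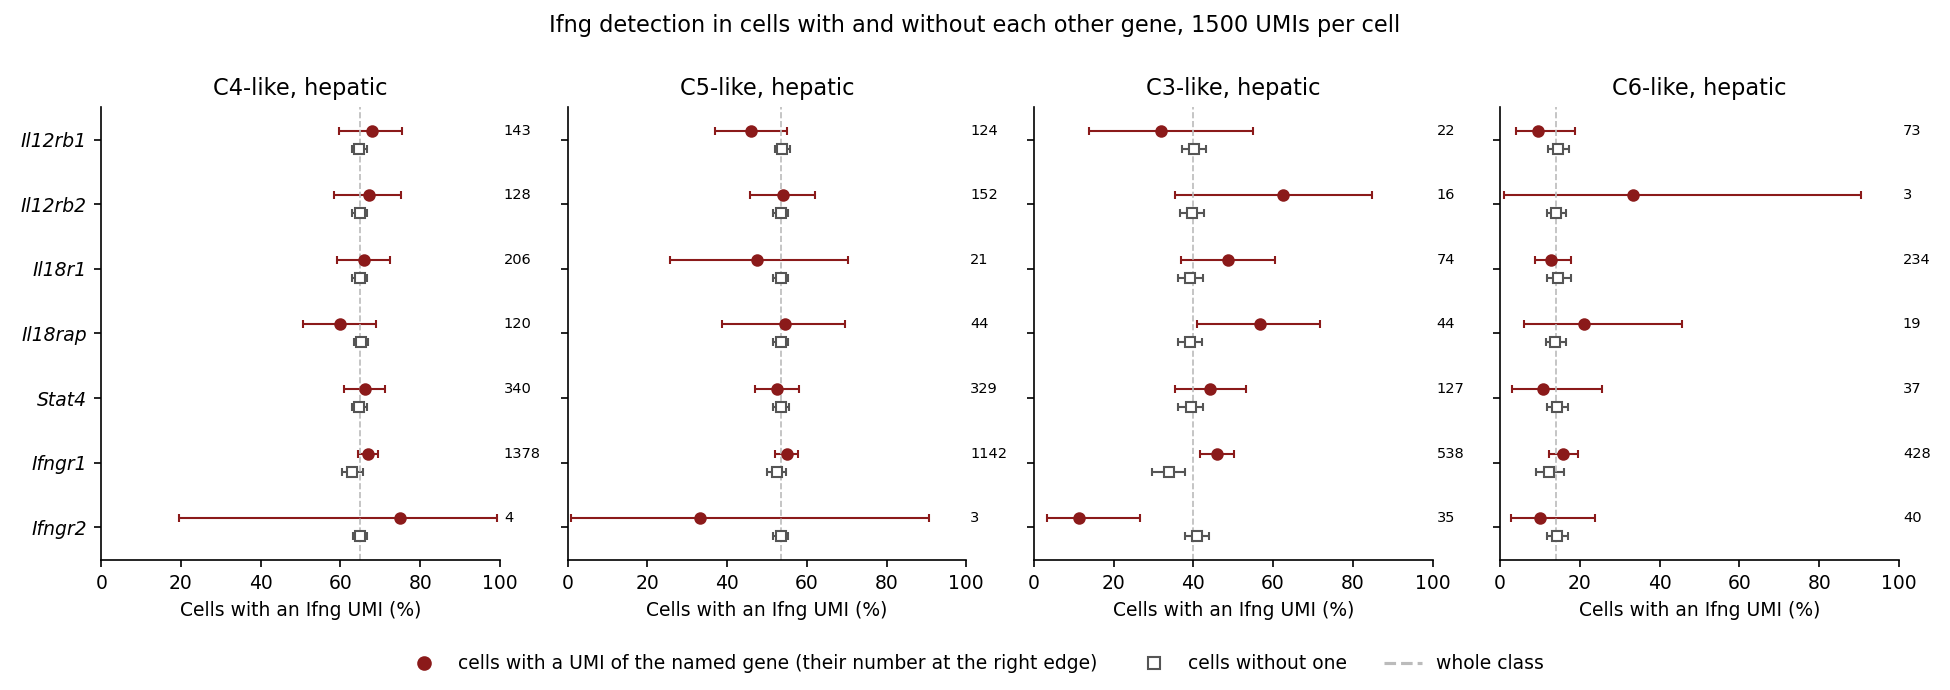
Share of hepatic cells with an Ifng UMI (%), after thinning to 1500 UMIs, among cells with a UMI of the gene named at the left (filled circles, their number at the right edge) and among cells without one (open squares), with exact binomial 95% intervals. In C4-like and C5-like cells the intervals of circles and squares overlap for every gene. In C3-like cells Ifngr2 (11.4% against 40.9%) and Ifngr1 (45.9% against 33.8%) part without overlap of their intervals.

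The genes around the pathway were counted with the same 2-fold rule over all kept cells of the liver against the thymus, where the median log2 ratio of all genes was -0.21. In that comparison 12.3% of all genes were higher and 17% lower, which is the background for each list below. Of 6 receptor partners and ligands with enough UMIs among 12, Il23r (2.28), Il18bp (2.12), which encodes the soluble inhibitor of IL-18, and Il15 (2.19) were higher and Il1r1 lower (0.413), with a median log2 ratio of 0.63. Of the genes of the inducing cytokines, Il12b had no UMI in either library, and Il18 was at 0.828 CPM in the liver, with 36.4 CPM in the C8-like cells. Of 13 genes below the IL-12 and IL-18 receptors, 4 were higher and none lower (median 0.39): Irak2 (4.59), Irak4 (2.50), Gadd45b (5.37) and Gadd45g (16.5). The JAK and p38 genes Jak2, Tyk2 and Mapk14 were not past 2-fold.

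Of 9 transcription factors and RNA regulators of Ifng with enough UMIs among 11, 4 were higher (median 0.96): Tbx21 at 75.6 against 1.29 CPM (ratio 58.6, 38.6 to 93.8), Hopx (40.2), and the genes of the RNA-binding proteins Zfp36 (6.06) and Zfp36l2 (2.59), whose products bind AU-rich transcripts. Tbx21 was at 100.1 CPM in C5-like, 84.6 in C4-like, 104 in C7-like, 40.8 in hepatic C3-like and 28.1 CPM in thymic C3-like cells, and had no UMI in C1-like or thymic C6-like cells. Eomes, its relative, was at 32.2 CPM in hepatic C3-like and 34.7 CPM in C7-like cells but at 3.00 and 3.80 CPM in C4-like and C5-like cells.

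Below the interferon-gamma receptor, 1 of 6 genes was past 2-fold, the feedback inhibitor gene Socs3 (2.72), with a median of 0.57. Of the 21 genes induced by interferon-gamma, 20 were found and 18 had enough UMIs, of which 11 were higher and none lower (median 1.18). They include the guanylate-binding protein genes Gbp5 (5.74), Gbp8 (3.08) and Gbp2 (2.42), the GTPase genes Igtp (3.78) and Irgm2 (5.28), the class I transactivator Nlrc5 (2.91) and Cxcl10 (7.59). Igtp, 1 of these genes, stood at 116 CPM in C4-like, 64.6 in C5-like, 47.4 in hepatic C3-like and 69.2 in hepatic C6-like cells. In C1-like cells, which are of the thymus library, it was at 19.1 CPM. Class levels of the other induced genes are not given, and how they relate to the level of Ifngr2 was not tested. Many of these genes also answer to type I interferons. Within the C3-like class 2 of 15 were higher (Gbp2 and Cxcl10), where 5.2% of all genes were. Of 17 in C4-like against C5-like cells 1 was higher (Gbp3), where 2.71% of all genes were.

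Of 9 other cytokines with enough UMIs among 10, 8 were higher in the liver (median 3.62), including Xcl1 (1905 against 46.8 CPM), Ccl3 (580.0 against 1.35 CPM), Tnf (56.3 against 4.57 CPM) and Il4 (17.1 against 2.17 CPM). Il17a was at 1614 CPM in hepatic C6-like cells and at 12 CPM in C4-like cells, and Il4 at 46.0 CPM in C4-like and 0.760 CPM in C5-like cells. All but 1 of the 11 immediate-early and heat shock genes were higher in the liver too, Egr1 being the exception (median 3.08), for example Hspa1a at 1942 against 4.10 CPM, Jun at 2272 against 76.9 CPM and Fos at 2012 against 329 CPM. In the C3-like class 7 of the 11 were higher in the hepatic cells, against 5.2% of all genes. In the C6-like class 10 of the 11 were, against 6.62% of all genes. These genes respond to cell handling as well as to stimulation, they moved with Ifng between the libraries, and their part in its level was not tested. The 3 markers of alpha-beta T cells (Cd4, Cd8a and Cd8b1) summed to 200.3 CPM in the hepatic and 13.4 CPM in the bead-depleted thymic cells, with 116 CPM in C4-like, 393 in C5-like, 98.1 in hepatic C3-like and 37.4 in hepatic C6-like cells. γδ T cells can carry CD8 as well, the constant genes of the T cell receptor were not analysed here, and the part of such cells in the Ifng level was not tested. The 4 Kupffer cell and monocyte markers summed to 20.9 and 1.05 CPM (Clec4f and Vsig4 at 0 in the thymus), of which 1050 CPM in C8-like and at most 5.78 CPM in the other hepatic classes compared. Erythroid markers (4 of 4 detected) summed to 28.9 CPM in the hepatic and 92.5 CPM in the thymic cells, and hepatocyte markers to 6.50 and 6.27 CPM. The erythroid sum was 301 CPM in thymic C2-like cells and 30.5 to 48.6 CPM in the other thymic classes compared. Hba-a1, Hbb-bs and Hba-a2 were among the leading genes of the C2-like cluster, beside its markers S1pr1, Cd200 and Ccr7. At resolution 0.8, 136 thymic and 27 hepatic cells formed an unnamed cluster led by Hba-a1 and Hbb-bs.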

How the data were processed

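The liver and thymus libraries were analysed, 1 of sorted hepatic and 1 of sorted thymic γδ T cells (Chromium Single Cell 3′ v2). The deposited values are unnormalised counts of UMIs for every gene in every barcode, which the authors made with Cell Ranger on mm10 per the submitters' processing notes, which also name Seurat 3.0. A pair of stray lines in the thymus matrix was not read. Cells with 800 to 4000 genes and at most 6% mitochondrial UMIs were kept; the study states fewer analysed cells than these limits leave. No doublet caller was run.

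Both libraries were clustered together in Seurat 5.3.0 (R 4.3.3) with LogNormalize, 2000 variable genes of which 1952 remained after the members and listed genes were taken out, 30 principal components and resolution 0.6. A cluster was named when its marker score was at least 0.5 and led the next by 0.2, on at least 3 markers. UMIs were summed per class and library as CPM with exact Poisson intervals. Ratios had exact conditional intervals, called at 2-fold with at least 50 UMIs over both groups. Cells were thinned to 1500 UMIs for shares (exact binomial intervals) and co-detection. Python 3.11.15, numpy 2.4.6, scipy 1.17.1, pandas 2.3.3 and matplotlib 3.10.9 were used, and the scripts were tested on simulated data.

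With 1 library per tissue no test was made. The members, marker lists and gene lists were chosen with earlier results of these data known. The band of 30 to 60 cells and its cutoffs of 0.5 and 1.4 were set after the values were seen. Named genes are the members, the genes of 7 lists, the nearest 5 genes to Ifng and 3 to each other member by Pearson r of log2(CPM + 10), and the 5 highest in co-detection with Ifng in each of C4-like and C5-like cells. Alternatives changed clustering, cell filters, scaling, thinning, fold and minimum UMIs. A few genes of the lists are not reported by name here.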

Additional observations from a re-analysis of the deposited data

How the results depend on the processing

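No paired analysis was possible because each tissue has 1 library. No liver to thymus ratio of the 8 genes over all cells changed direction, while co-detection ratios with Ifng in C4-like and C5-like cells, whose intervals hold 1, crossed 1 at another thinning or with none. In all, 179 of the 220 alternative values of the main results stayed within their interval or 1.5 times their count, and the cause of the other 41 was not tested. The co-detection alternatives of hepatic C3-like cells were chosen after seeing the data. Levels in hepatic C2-like, thymic cycling and thymic C3-like cells moved most often by over 1.5 times among the class levels recomputed. Without the 5% of cells with the most UMIs, Ifng was 176 CPM in the 56 thymic cells then named C3-like and 129 CPM in hepatic C6-like cells. The liver to thymus ratio was then 2.43 for Il18r1, 0.571 for Ifngr1 and 1.2 for Stat4. At resolution 0.8 Ifng in C4-like cells was 1082 CPM. Only 1884 hepatic cells were then named C4-like, against 2751 in the main clustering, and 945 formed an unnamed cluster led by Lilr4b and Lilrb4a. With each library clustered alone, 1799 hepatic cells were named C4-like and 1478 formed an unnamed cluster led by the same genes. Ifng was then 1084 CPM in C4-like and 715 CPM in C5-like cells. With 3000 variable genes it was 729.8 CPM in C5-like cells. With the naming markers left out, C7-like cells stood at 386 CPM. By the mean of the cells' own CPM the ratios were 56.1 for Ifng, 2.08 for Il18r1, 0.525 for Ifngr1 and 1.15 for Stat4, and without mitochondrial and ribosomal-protein UMIs 0.553 for Ifngr1 and 1.18 for Stat4. The share of cells with an Ifng UMI depends on depth by construction: at 1000 UMIs, 2000 UMIs and without thinning it was 53.2%, 71.7% and 79.2% of C4-like and 42.3%, 61.6% and 69.7% of C5-like cells. Co-detection of Ifng with Il18rap in C4-like cells was 1.12 at 1000 UMIs, and with Il12rb1 in C5-like cells 1.04 under a second random thinning. Genes at or past a co-detection ratio of 1.2 numbered 3 for the C4-like and 10 for the C5-like class at 1000 UMIs, and for the C5-like class 0 at 2000 UMIs and 1 under the second thinning. At 1.5-fold, genes higher and lower numbered 2019 and 3378 over all cells, 716 and 852 in C3-like, 717 and 561 in C6-like cells, and 561 and 509 for C4-like against C5-like cells. With at least 100 UMIs the counts were 154 and 85 in C3-like and 182 and 50 in C6-like cells, with 155 higher for C4-like against C5-like cells.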
